A study of Mus musculus with 7 samples.

Results

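The 6 mouse *Dlx* genes, *Dlx1* to *Dlx6*, were followed in RNA from the posterior second heart field (pSHF) of mouse embryos with and without *Shh*. Every non-control probe whose gene name on the array equals one of these symbols was taken, which gave 6 probes, 1 for each gene, out of 34747 probes for 21380 named genes. The 6 genes were selected on the comparison of the genotypes in these same arrays, so their differences between genotypes are given as a description and without a test. Of the 6 probes, 3 (*Dlx1*, *Dlx2* and *Dlx5*) passed the filter on dim signals, and *Dlx3*, *Dlx4* and *Dlx6* did not.

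The pSHF was dissected from embryos at E9.5 with the foregut attached and with heart and neural tube taken away, pooled by genotype, and its RNA was hybridized with 1 dye to 1 array per pool. The 4 mutant pools were *Shh* -/- and the 3 wild-type pools *Shh* +/+. All came from crosses of *Shh* +/- parents on a background labelled C56B/6 and CD-1 mixed, and all mothers had been superovulated with gonadotropins. *Shh* was thus missing from the whole embryo, not from the pSHF alone, and each array averages several embryos.

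*Dlx* genes encode homeodomain transcription factors related to *Distal-less* of the fly. In mammals they lie in linked pairs, each pair with its genes pointing towards each other and sharing enhancers between them. In the branchial arches, neural crest mesenchyme expresses the pairs in nested domains, *Dlx1* and *Dlx2* along the whole arch, *Dlx5* and *Dlx6* in its lower part, and *Dlx3* and *Dlx4* nearest the tip, and the same genes serve in the forebrain, the placodes and the limb ectoderm.

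The probes are shown because each gene is read by a single one, so that its value rests on that stretch of RNA. Their opening 30 of 60 bases, in the sense of the transcript, read as follows, with positions of the whole probe in the array's mm9 annotation.
*Dlx1*, chr2:71371499-71371558, plus strand: gttgtcaaaaacgtttggacaagaacacct
*Dlx2*, chr2:71381553-71381612, minus strand: gatttgaatttgtttttatcttgtcctaaa
*Dlx3*, chr11:94985761-94985820, plus strand: tccttccatgtacaggactttgcacaagtc
*Dlx4*, chr11:95001960-95002019, minus strand: atctacccattttgaattgatagccatggg
*Dlx5*, chr6:6828063-6828122, minus strand: gtgttgtgctggtttagaaatcagaaagaa
*Dlx6*, chr6:6815092-6815151, plus strand: acagtgatcgaaaacggggaaatcaggttc

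No pair of these probes shared a run longer than 8 bases on either strand, over their full 60 bases. In all 3 linked pairs the gene with the lower coordinate lay on the plus strand and its partner on the minus strand. The probes of a pair lay 9994 bases apart for *Dlx1* and *Dlx2*, 16139 for *Dlx3* and *Dlx4*, and 12911 for *Dlx5* and *Dlx6*. Exons and untranslated regions of mm9 were not used here, so the part of each transcript under its probe is not given.

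*Dlx1* and *Dlx2* were lower in every mutant pool than in any wild-type pool, whereas *Dlx5* overlapped between genotypes and *Dlx3*, *Dlx4* and *Dlx6* were near background. Values are normalized log2 signals, in which a step of 1 is a factor of 2, and fold changes are mutant minus wild type.

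*Dlx1*, which acts with *Dlx2* in arch crest and in forebrain interneurons, read 7.93, 7.98 and 7.84 in wild-type pools 1, 3 and 4. In mutant pools 1, 2, 3 and 4 it read 6.61, 6.04, 6.44 and 6.39. The mutant pools were all low, pool 2 lowest, and a gap of 1.23 separated the highest of them from the lowest wild-type pool. The means were 6.37 ± 0.24 (SD, n = 4) in mutants and 7.92 ± 0.07 (SD, n = 3) in wild type, a log2 fold change of -1.55 (SE 0.14), or 34.3% of the wild-type level. In whole tissue, fewer cells that express a gene and less of its RNA per cell cannot be told apart.

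The unnormalized mean spot signal of *Dlx1* was 222, 303 and 280 in the wild-type pools and 102 to 156 in the mutant pools, over local backgrounds of 21 to 24.5. Its spot was well above background on all 7 arrays.

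*Dlx2*, the partner of *Dlx1* across their shared enhancers, read 10.62, 10.68 and 10.29 in wild-type pools 1, 3 and 4. In mutant pools 1, 2, 3 and 4 it read 9.34, 8.94, 9.31 and 9.47. Again every mutant pool was low and pool 2 lowest, with a gap of 0.82 between the genotypes. The means were 9.26 ± 0.23 (SD, n = 4) and 10.53 ± 0.21 (SD, n = 3), a log2 fold change of -1.27 (SE 0.16), or 41.5% of wild type.

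The unnormalized signal of *Dlx2* ran from 569 to 988 in the mutants and from 1304 to 1832 in wild type, without overlap before normalization.

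*Dlx5*, which with *Dlx6* gives the lower jaw its identity, read 6.16, 7.28 and 5.91 in wild-type pools 1, 3 and 4. In mutant pools 1, 2, 3 and 4 it read 5.57, 5.82, 6.20 and 6.16. Wild-type pool 3 stood above all other pools, and without it the genotypes lay in the same range. The means were 5.94 ± 0.30 (SD, n = 4) and 6.45 ± 0.73 (SD, n = 3), a log2 fold change of -0.51 (SE 0.31) that shrank to -0.10 (SE 0.21) when wild-type pool 3 was left out.

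*Dlx3*, a gene of the distal arch, the placodes and later of skin and tooth, was well above background on 1 array, wild-type pool 3, where it read 4.09. On the other 6 arrays it read 3.34 to 3.77. *Dlx4*, its partner, read 3.52 to 4.18 and was well above background on 0 of 7 arrays. *Dlx6*, the partner of *Dlx5*, read 3.45 to 4.06 and was likewise well above background on 0 of 7 arrays. Each of these dim probes had its highest reading in wild-type pool 3, the pool with the highest *Dlx5* reading. Since neither genotype had any of them well above background throughout its arrays, no fold change is given.

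**Figure D1:**
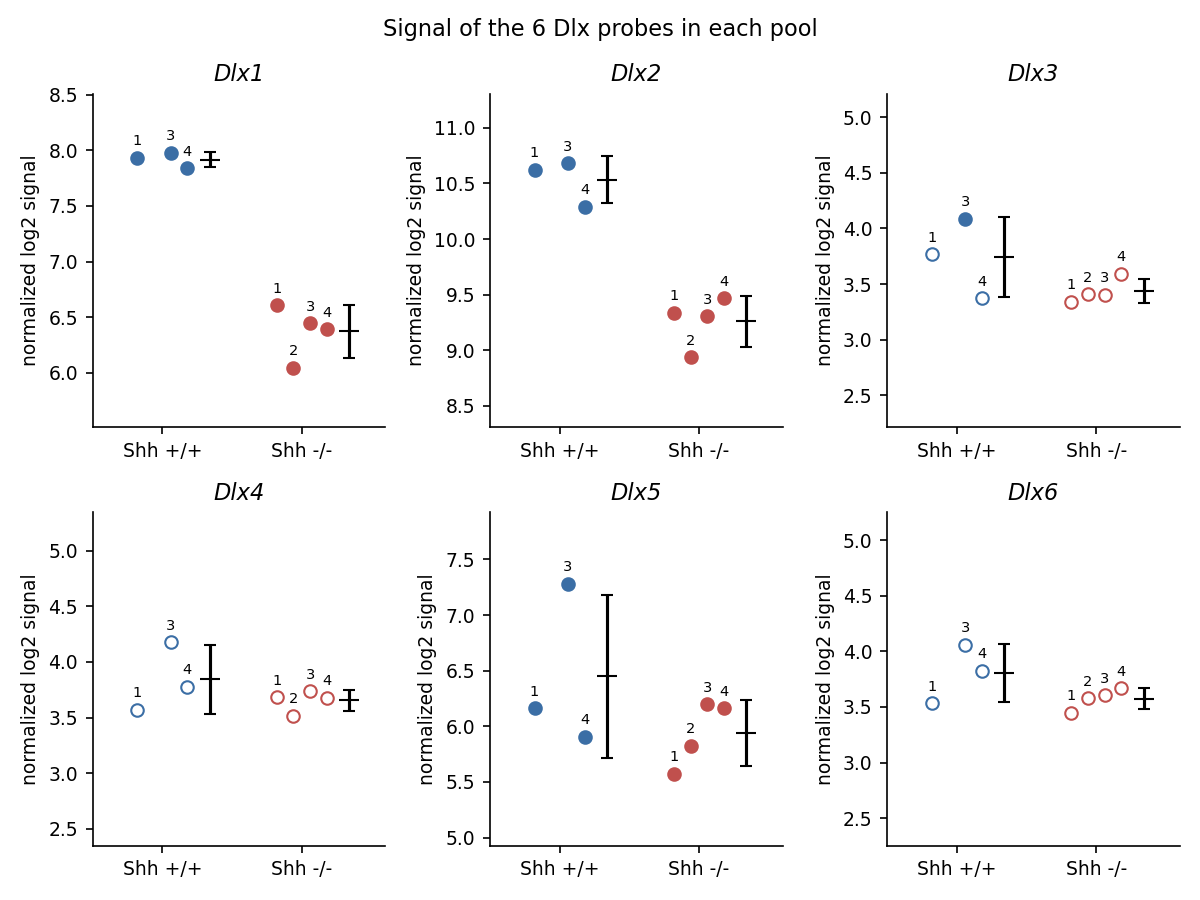
Normalized log2 signal (y axes, each spanning 3 log2 units) of the 6 *Dlx* probes in the wild-type (blue) and mutant (red) pools, numbered by pool, with filled points where the spot was well above background and bars for mean and SD. The wild-type and mutant points are apart for *Dlx1* (7.84 to 7.98 against 6.04 to 6.61) and *Dlx2* (10.29 to 10.68 against 8.94 to 9.47), and overlap for the other 4 genes.

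Of the 23124 named probes tested across the array with limma, 0.285% were called lower in the mutants and 0.238% higher, at a Benjamini-Hochberg adjusted p under 0.05. *Dlx1* and *Dlx2* were among the probes called lower and *Dlx5* was in neither set. Pools of the genotypes did not overlap, with the mutants lower, for 3.57% of the tested probes, *Dlx1* and *Dlx2* among them. As the genes were selected on this contrast, nothing is read from their number among these probes. By size of the fall *Dlx1* stood at rank 22 and *Dlx2* at rank 55. Over all tested probes the log2 fold change had a median of 0.02, and pools of the same genotype differed with a median SD of 0.19. Among 114 probes with signals like those of the measured *Dlx* genes and 10 spots on each array, the median SD between spots of 1 array was 0.05. This SD was taken on log2 signals before background correction and normalization, so it is not on the same scale as the 0.19.

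Mutant and wild-type pools 1, 3 and 4 each shared a slide. Within slides 1, 3 and 4, *Dlx1* differed by -1.33, -1.54 and -1.45 on the log2 scale. *Dlx2* differed by -1.28, -1.37 and -0.82, smallest on slide 4, where its wild-type reading was lowest. *Dlx5* differed by -0.59, -1.08 and 0.25, so that its direction turned on slide 4. With slide as a block, the log2 fold changes were -1.44 (SE 0.13) for *Dlx1*, -1.16 (SE 0.15) for *Dlx2*, which was then no longer among the probes called lower, and -0.47 (SE 0.24) for *Dlx5*. The mutant pool always held the first array position of a slide and the wild-type pool the next one, so position and genotype cannot be told apart.

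**Figure D2:**
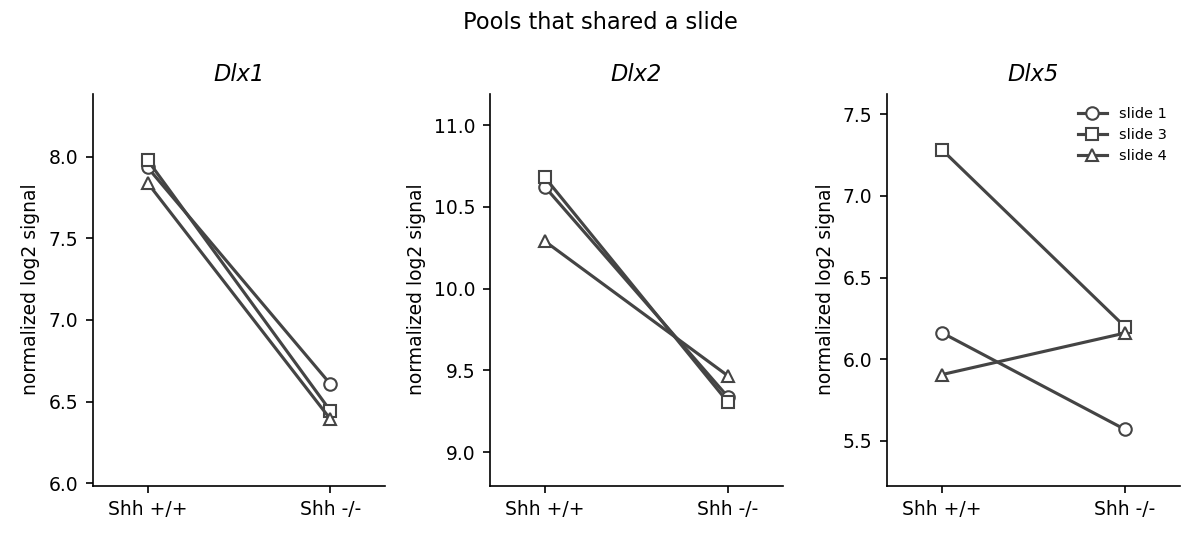
Normalized log2 signal (y axes) of *Dlx1*, *Dlx2* and *Dlx5* in the wild-type and mutant pools that shared a slide, joined by a line for each of slides 1, 3 and 4. Every line runs down for *Dlx1* (-1.54 to -1.33) and *Dlx2* (-1.37 to -0.82), and for *Dlx5* the line of slide 4 runs up (0.25).

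The array of mutant pool 2, alone on its slide, is recorded in the labels as one that may have leaked. It gave the lowest *Dlx1* and *Dlx2* readings, at -0.33 from the mutant mean for each. Without it, the log2 fold changes were -1.44 (SE 0.12) for *Dlx1*, -1.16 (SE 0.14) for *Dlx2* and -0.47 (SE 0.35) for *Dlx5*. These equal the values with slide as a block, because the block's term for slide 2 takes up its only array. The block and the omission are therefore not separate checks. The block also left few residual degrees of freedom, which makes calls harder to reach.

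Within the linked pair, the log2 fold change of *Dlx1* minus that of *Dlx2* was -0.28 (SE 0.11 from the difference of the probes on each array), with a 95% interval of -0.55 to 0.0016. This difference turned to 0.08 (SE 0.08) after quantile normalization and was -0.10 (SE 0.09) without background correction. The size of the fall was therefore not told apart between the partners. For *Dlx5* and *Dlx6*, and for *Dlx3* and *Dlx4*, no pair difference could be formed, since a partner was not measured above background.

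*Dlx1* and *Dlx2* had their lowest readings in the same pools. Mutant pool 2 was the lowest mutant pool for both, and wild-type pool 4 the lowest wild-type pool for both, at -0.08 and -0.24 from the wild-type mean. *Dlx5* followed another order, with its lowest mutant reading in pool 1. In wild-type pool 3 it lay 0.83 above the wild-type mean, where *Dlx1* lay 0.06 and *Dlx2* 0.15 above theirs.

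The likeness of patterns was measured as Pearson's r over the 7 arrays against the brightest tested probe of 14785 genes, as a description in which the difference between genotypes takes part. *Dlx2* was the third most similar gene to *Dlx1* (r = 0.983), after *Dleu7* (r = 0.989) and *Gpr98* (r = 0.984) and before *Bai1* and *Cpsf4l*. The genes most similar to *Dlx2* were *Apln* (r = 0.992), *Tdrd12* (r = 0.990), *4931429I11Rik* (r = 0.984), *Dlx1* and *Nrarp* (r = 0.980). *Dlx5* resembled *Sc4mol* (r = 0.977), *Lss* (r = 0.963), *Wfdc1*, *Tpi1* and *Odf4*, and was at rank 1574 for *Dlx1* (r = 0.514). After each genotype's mean was taken away, r between *Dlx1* and *Dlx2* was 0.774, which put *Dlx2* at rank 664 for *Dlx1*, and r between *Dlx1* and *Dlx5* was 0.129.

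Transcripts of the *Dlx5* and *Dlx6* locus on the strand opposite to *Dlx6* are known to take part in the control of these 2 genes in the forebrain. A transcript that the array names *Dlx6as*, with its probe at chr6:6814483-6814542 on the minus strand, read 6.31, 6.37 and 6.36 in wild-type pools 1, 3 and 4. In mutant pools 1, 2, 3 and 4 it read 6.54, 5.70, 6.19 and 6.51. It was well above background on all 7 arrays, the genotypes overlapped, and its log2 fold change was -0.12 (SE 0.20). A further locus transcript, *Dlx6os1*, was read by 2 probes that were well above background on 0 of 7 arrays.

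The promoters of *Dlx1* and *Dlx2* are shown because both genes were lower in every mutant pool, and because the RefSeq table used here (GRCm38.p6) holds both. Each is given as the 250 bases before the start, 5′ to 3′ on the gene's strand. Motifs searched on both strands were the Gli motif GACCACCCA, the homeodomain motif TAATTA, the CCAAT box and the E-box CACGTG. Capitals mark the matches.
*Dlx1*, chr2:71529195-71529444, plus strand: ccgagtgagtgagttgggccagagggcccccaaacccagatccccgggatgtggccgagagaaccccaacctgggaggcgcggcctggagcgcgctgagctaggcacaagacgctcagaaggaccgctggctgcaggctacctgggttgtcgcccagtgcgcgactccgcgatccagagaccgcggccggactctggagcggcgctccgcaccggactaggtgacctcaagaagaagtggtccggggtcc
*Dlx2*, chr2:71546755-71547004, minus strand: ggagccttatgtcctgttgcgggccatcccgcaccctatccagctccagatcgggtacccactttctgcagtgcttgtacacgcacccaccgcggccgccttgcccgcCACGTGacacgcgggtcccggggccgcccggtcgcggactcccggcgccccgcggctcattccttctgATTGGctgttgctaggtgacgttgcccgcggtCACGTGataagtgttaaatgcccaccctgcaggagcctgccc

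The *Dlx2* window held 2 matches to the E-box, found in 6.02% of 32851 promoter windows of this length, and 1 to the CCAAT box in reverse (ATTGG), found in 33.8%. The *Dlx1* window held no match to any of the 4 motifs. The Gli motif occurred in 0.225% of all windows and TAATTA in 4.84%, and in neither of these promoters. GC content was 68% for *Dlx1* and 66.4% for *Dlx2*, against a median of 52.4% over all windows, and CpG number 22 and 24 against a median of 6. These are matches of letters in a short window and say nothing of distal sites.

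Neighbouring genes were described beside the linked pairs. The 3 nearest tested genes on each side of each linked pair gave 6 neighbours per pair. Of these, 0 passed the limma test at an adjusted p under 0.05 at any of the pairs. Over all tested probes 0.285% were called lower and 0.238% higher. With shares so small, 0 of 6 cannot tell whether the difference extended along the chromosome. Around *Dlx1* and *Dlx2* (*Slc25a12*, *Hat1*, *Metapl1*, *Itga6*, *Pdk1* and *B230120H23Rik*) log2 fold changes ran from -0.31 (*Metapl1*, adjusted p = 0.582) to 0.08 (*Slc25a12*), with a median of -0.18. Of these 6, 5 had a negative sign, against 44.9% of all tested probes. At an unadjusted p under 0.05, 1 of the 6 was lower and 0 higher. Over all tested probes, 4% were lower and 3.93% higher by that threshold, against which this and the later counts at an unadjusted p are to be read. The medians were -0.0017 around *Dlx3* and *Dlx4* and 0.05 around *Dlx5* and *Dlx6*, and 0 of either 6 passed at an unadjusted p under 0.05.

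The genes that signal to *Dlx* expression in the arches, or receive those signals, were described from a list of 12, all tested and well above background on every array. In limma, 0 of the 12 were called in either direction, 2 were lower and 0 higher at an unadjusted p under 0.05 (4% and 3.93% of all tested probes), and the median log2 fold change was 0.02. *Edn1*, the endothelin that switches on *Dlx5* and *Dlx6* in the lower arch, had a log2 fold change of 0.38 (SE 0.18, adjusted p = 0.726), its receptor *Ednra* -0.09 (SE 0.15) and its converting enzyme *Ece1* 0.16 (SE 0.12). *Bmp4*, a further inducer in the distal arch, had a log2 fold change of 0.02 (SE 0.15).

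*Fgf8*, an ectodermal and endodermal signal to arch crest, read 9.12, 9.16 and 8.19 in wild-type pools 1, 3 and 4. In mutant pools 1, 2, 3 and 4 it read 7.33, 6.56, 7.91 and 7.07. The genotypes did not overlap, and the log2 fold change of -1.61 (SE 0.33) missed the threshold in limma (adjusted p = 0.0892). *Jag1*, a Notch ligand, gave -0.68 (SE 0.14, adjusted p = 0.0901).

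Transcription factors of arch mesenchyme, among them genes known to act downstream of or beside the *Dlx* code, were present. Of 26 listed and tested, all but *Lhx8* were well above background on every array. In limma 1 was called lower and 1 higher, with 5 lower and 4 higher at an unadjusted p under 0.05 and a median log2 fold change of -0.04. *Hand2* (0.25, SE 0.18) and *Gsc* (0.63, SE 0.40), which depend on *Dlx5* and *Dlx6* in the lower arch, did not pass, nor did *Lhx6* (-0.17, SE 0.19), a gene under *Dlx1* and *Dlx2* in forebrain. *Gbx2*, a homeobox gene of the arches, fell by 0.83 on the log2 scale (SE 0.13, limma adjusted p = 0.0437), and *Pitx1*, a hindlimb and jaw factor, rose by 0.93 (SE 0.16, limma adjusted p = 0.0458). With slide as a block neither was called (adjusted p = 0.0829 for *Gbx2* and 0.102 for *Pitx1*). The call of *Gbx2* was lost whenever any 1 of the 7 arrays was left out (adjusted p up to 0.151), and that of *Pitx1* when any array other than wild-type pool 4 was (up to 0.223). *Eya1* (-1.04, SE 0.19, adjusted p = 0.0656) missed the threshold, as did *Lhx8* (adjusted p = 0.287), which was well above background in 1 of 4 mutant pools and is given no size.

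Of 10 listed partners and targets of *Dlx* proteins, 7 were tested and 0 were called by limma in either direction, with a median of 0.04 and with 0 lower and 2 higher at an unadjusted p under 0.05 (4% and 3.93% of all tested probes). *Maged1*, which binds *Dlx* proteins, had a log2 fold change of 0.04 (SE 0.11), and *Runx2*, a bone factor, 0.74 (SE 0.31, adjusted p = 0.582). *Gad1* and *Gad2*, which make the transmitter of the interneurons that depend on *Dlx1* and *Dlx2*, were not tested, as they were well above background on 1 and 0 arrays.

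**Figure D3:**
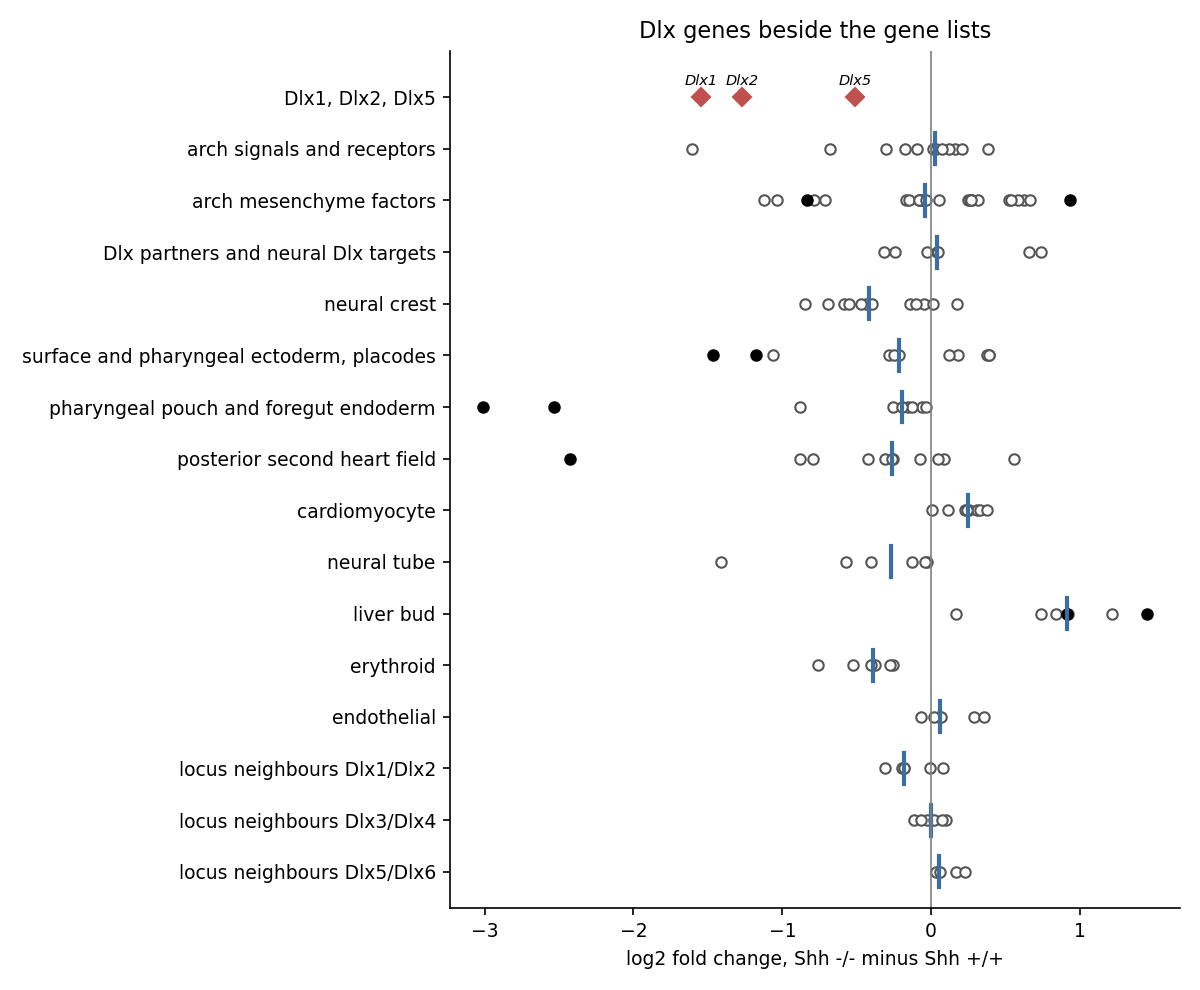
Log2 fold change, mutant minus wild type (x axis), of the 3 measured *Dlx* genes (red) and of the tested genes of each list (circles, filled where limma gave an adjusted p under 0.05), with blue bars at list medians. *Dlx1* (-1.55) and *Dlx2* (-1.27), which were selected on this contrast, lie left of every locus neighbour, and the medians of the arch lists are 0.02 and -0.04. Some listed genes lie left of both, among them *Pax1* (-3.01), *Foxf2* (-2.43) and, in an arch list, *Fgf8* (-1.61).

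Markers of the tissues that could carry *Dlx* RNA were described in the same way. Of 13 neural crest markers 12 were tested and 0 were called by limma, with 5 lower and 0 higher at an unadjusted p under 0.05, against 4% and 3.93% of all tested probes. Their median log2 fold change was -0.42 and 10 of 12 had a negative sign. The summed linear signal of the 12 was 16149.6 to 18866 in mutant and 18236 to 21050 in wild-type pools, so the genotypes overlapped. *Crabp1* and *Ets1* made up 54.6% of this sum. *Sox10* gave -0.44 (SE 0.20) and *Crabp1* -0.47 (SE 0.15), *Twist1* 0.18 (SE 0.15), and *Ret* was well above background on 0 of 7 arrays. The part of these markers in the *Dlx1* and *Dlx2* values was not tested.

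Of 13 markers of surface and pharyngeal ectoderm and placodes, 11 were on the array and tested, and 2 were called lower and 0 higher by limma, with a median of -0.22 and with 3 lower and 3 higher at an unadjusted p under 0.05. *Tcfap2c*, an ectoderm and crest factor, read 8.61, 8.49 and 8.30 in wild-type pools 1, 3 and 4. In mutant pools 1, 2, 3 and 4 it read 7.06, 7.41, 7.17 and 7.51, and it fell by 1.18 on the log2 scale (SE 0.14, limma adjusted p = 0.0164). The other gene called, *Foxi2*, a forkhead gene of cranial ectoderm (limma adjusted p = 0.0342), was well above background in all 3 wild-type but only 2 of 4 mutant pools. It entered the test through the wild-type pools alone, so the count of 2 includes a gene that had to be lower to be tested, and no size is given for it. With slide as a block neither was called (adjusted p = 0.0651 and 0.0543). *Tcfap2c* was also lost without wild-type pool 1, mutant pool 3 or wild-type pool 3 (adjusted p up to 0.102), and *Foxi2* when any array other than mutant pool 1 was left out (up to 0.119). *Krt5*, the keratin of basal surface epithelium, had a log2 fold change of -1.06 (SE 0.19) without overlap between genotypes and missed the limma threshold (adjusted p = 0.0542). *Krt14*, a further keratin of the list, went the other way at 0.39 (SE 0.16), as did *Perp* at 0.38 (SE 0.17). Both were among the 3 higher at an unadjusted p under 0.05. *Krt8* and *Krt18*, keratins of simple epithelia, gave 0.39 (SE 0.14) and 0.12 (SE 0.14). The summed signal of the list was 106874 to 133121 in mutant against 95705 to 114387 in wild-type pools, and *Krt18* and *Krt8* made up 91.9% of it, so the sum says little of the other members. The share of ectoderm in the pools was not tested against the *Dlx* values.

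Of 10 markers of pharyngeal pouch and foregut endoderm, 9 were tested and all 9 had a negative sign, with a median of -0.20. Over all tested probes 44.9% had a negative sign. Limma called 2 of them lower, and 3 were lower and 0 higher at an unadjusted p under 0.05. *Pax1* fell by 3.01 on the log2 scale (SE 0.48, limma adjusted p = 0.0423) and was well above background on all 7 arrays. *Pax9*, its relative in the pouches (limma adjusted p = 0.0352), was well above background in all 3 wild-type but only 1 of 4 mutant pools. It was thus tested through the wild-type pools alone, and no size is given for it. Neither was called with slide as a block (adjusted p = 0.123 and 0.0543). Without an array, *Pax1* passed only where mutant pool 1 was left out (adjusted p up to 0.179 otherwise) and *Pax9* only where mutant pool 3 was (up to 0.203 otherwise). *Nkx2-1*, the third gene lower at an unadjusted p, had a log2 fold change of -0.88 (SE 0.15) without overlap between genotypes. It missed the limma threshold (adjusted p = 0.0519). The general foregut genes *Foxa2* (-0.25, SE 0.12) and *Epcam* (-0.13, SE 0.11) did not pass. The summed signal was 18713 to 20639 in mutant and 21804 to 25379.9 in wild-type pools, without overlap. *Foxa2* and *Epcam* made up 75.6% of it, so the sum says little of the other members. Whether the difference in this sum bears on *Dlx1* and *Dlx2* was not tested.

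The 11 pSHF markers were well above background on all 7 arrays, and limma called 1 lower, *Foxf2*, which fell by 2.43 (SE 0.18, adjusted p = 0.00213), with 4 lower and 1 higher at an unadjusted p under 0.05. The list median was -0.26, with summed signals of 52051 to 65602 in mutant and 60177 to 72584 in wild-type pools. *Wnt2* and *Aldh1a2* made up 65.1% of the summed signal. The 8 cardiomyocyte genes were also well above background on all arrays, with 0 called, 0 at an unadjusted p under 0.05 and a median of 0.25, although the heart had been taken away. Of 9 neural tube markers 6 were tested, of which limma called 0 (median -0.27), with 2 lower at an unadjusted p under 0.05. For liver bud, 2 of 7 tested markers, *Ttr* and *Fga*, were called higher, 6 of 7 were higher at an unadjusted p under 0.05, and all 7 had a positive sign (median 0.91). Both calls were lost with slide as a block (adjusted p = 0.104 and 0.0638) and when any array other than mutant pool 1 was left out. Limma called 0 of 6 erythroid (median -0.39) and 0 of 6 endothelial markers (median 0.06), with 2 lower and 1 higher at an unadjusted p under 0.05. Signs were all negative for the 6 tested neural tube and the 6 erythroid markers, and all positive for the 8 cardiomyocyte genes. One-sided signs were thus also seen in these lists, against 44.9% negative over all tested probes.

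The targeted gene and its pathway checked the labels. *Shh* read 10.69, 10.71 and 9.95 in wild-type pools 1, 3 and 4 and 9.64, 9.36, 9.19 and 9.29 in mutant pools 1, 2, 3 and 4, a log2 fold change of -1.08 (SE 0.20, limma adjusted p = 0.0656). Whether its probe lies in the deleted part of the gene is not given in the sources used here. *Hhip*, a direct Hedgehog target, fell by 2.83 (SE 0.18, limma adjusted p = 0.00122). *Gli1* gave -1.02 (SE 0.19, adjusted p = 0.067) and *Ptch1* -1.17 (SE 0.28, adjusted p = 0.141), the latter well above background in 3 of 4 mutant pools, and neither overlapped between genotypes.

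Over the 12 other ways of processing, the log2 fold change of *Dlx1* ran from -2.11 to -1.17, that of *Dlx2* from -1.93 to -1.16 and that of *Dlx5* from -0.97 to -0.33. Dropping the filter, averaging probes and the unadjusted p could not change these values, as each gene has 1 probe. The widest values came from 2 settings that left the arrays at different medians and moved the median of all probes to -0.40 and -0.54. Relative to that median, *Dlx1* was at -1.42 and -1.56 and *Dlx2* at -1.41 and -1.38. Leaving out each array in turn gave -1.62 to -1.44 for *Dlx1*, -1.39 to -1.16 for *Dlx2* and -0.78 to -0.10 for *Dlx5*.

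**Figure D4:**
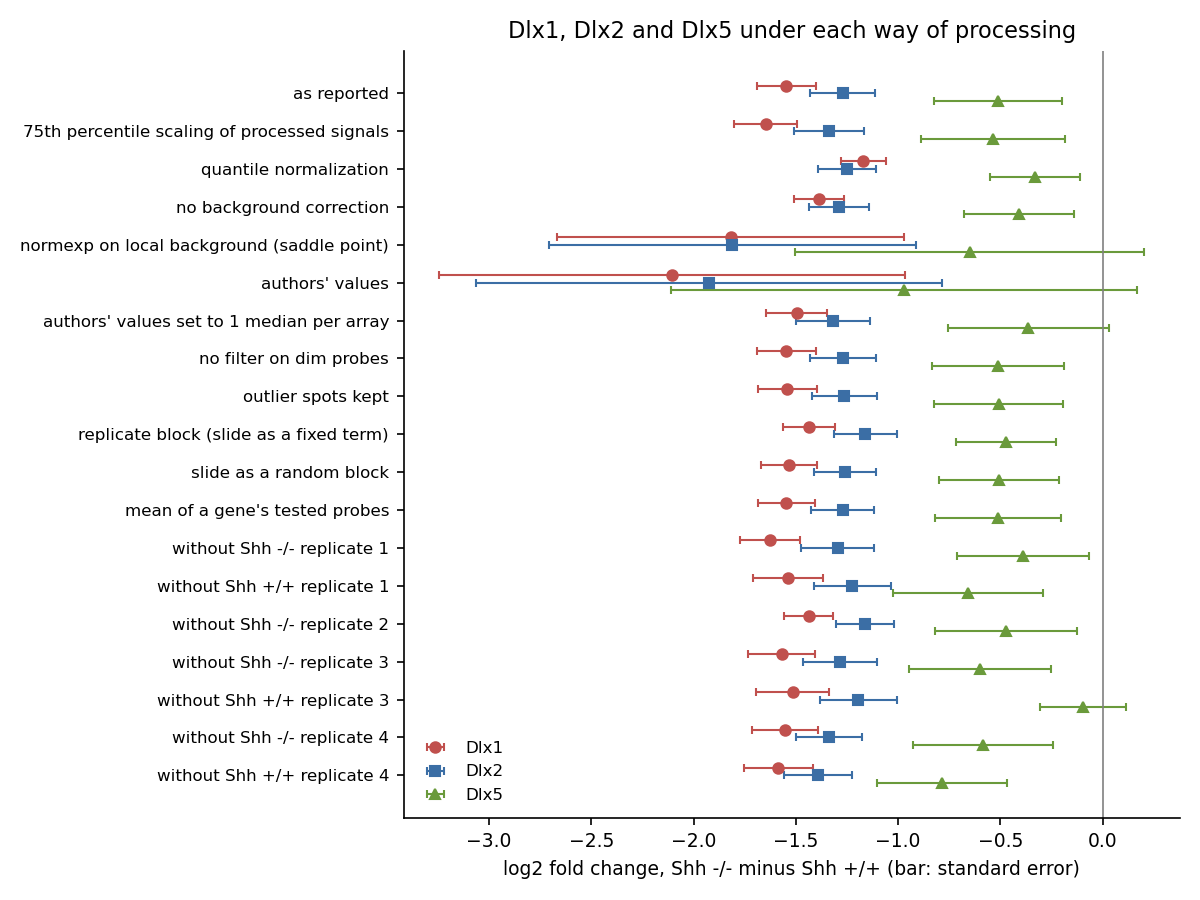
Log2 fold change, mutant minus wild type (x axis, bars are SE), of *Dlx1*, *Dlx2* and *Dlx5* under the processing used here, the other ways of processing and without each array (y axis). *Dlx1* stays between -2.11 and -1.17 and *Dlx2* between -1.93 and -1.16, while *Dlx5* comes to -0.10 without wild-type pool 3.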

How the data were processed

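RNA of 4 *Shh* -/- and 3 *Shh* +/+ pools was measured on single-colour Agilent arrays of 43379 spots for 41174 probes. The authors' deposited files hold the mean signal and local background of each spot as intensity (Agilent Feature Extraction 10.5.1.1, per the submitters' processing notes), with flags, and the authors' normalized values of 26255 probes on the log2 scale. The scale and direction of the latter were clear from a slope near 1 against the values used here, but array medians ran from 5.50 to 9.93, so how arrays were equalized is unknown.

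Condition and pool number came from the labels, in which the strain and genotype entries are exchanged. The number marks a shared slide. Deviations from genotype means correlated at 0.192, 0.239 and 0.0328 within slides 1, 3 and 4, and at -0.22 to 0.187 between slides. Nothing states that pools came from separate litters. The p-values set the genotype difference against the spread between these pools and reach no further.

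Following the order of steps in the study's methods, outlier spots (155 to 206 per array) were left out, mean signals were corrected by normexp with 153 negative control spots (offset 50), normalized by VSN (trimming share 0.9, 7 iterations and 5 strata, written for this work) and taken to log2. The methods do not name the background correction. Between 59.9% and 70.6% of probes were well above background, over local background medians of 21 to 25 and spot medians of 86.4 to 145.3. Tests covered probes with a gene name whose spots were well above background throughout the arrays of 1 genotype or both. A gene was read by its brightest tested probe. Genotypes were compared with limma 3.58.1 in R 4.3.3 (with data.table, version 1.17.8), Benjamini-Hochberg over 23124 probes. The pipeline was tested on simulated data. Figures used matplotlib 3.10.9 in Python 3.11.15.

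The members and gene lists were chosen with earlier results of these data known. Genes named are the 6 members, listed genes that were called, the largest changes of a list, defining markers at or near background, the 5 closest patterns, and a few further listed genes, chosen for their role after their values were seen. Current symbols came from RefSeq (GRCm38.p6), which matched 25097 of 34747 named probes by transcript. Alternatives were 75th percentile scaling, quantile normalization, no background correction, local background, the authors' values, no filter, outliers kept, slide as a fixed or random block, mean of a gene's probes, unadjusted p, each array left out and, added after seeing the data, the authors' values set to 1 median. The number of arrays limits precision.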

Additional observations from a re-analysis of the deposited data

How the results depend on the processing

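*Dlx1* and *Dlx2* were lower in mutants under all 12 alternatives and without each of the 7 arrays, and *Dlx5* had a negative sign in the same 19 settings. These settings are not all separate checks. Dropping the filter, averaging probes and the unadjusted p could not change the fold change of a gene with 1 probe. The fixed slide block gave the same fold changes as leaving out mutant pool 2. The genes were selected on this contrast, so the counts that follow are a description. The number of *Dlx* genes called lower was 2 as reported. It was 0 with local background, 0 with the authors' values, 0 with those set to 1 median, 1 with slide as a replicate block, and 1 to 2 without an array, being 1 without wild-type pool 1, mutant pool 3 or wild-type pool 3, where *Dlx2* was no longer called. The difference of *Dlx1* from *Dlx2* became 0.081 with quantile normalization, -0.10 without background correction and -0.0086 with local background, and was -0.33 to -0.19 without an array. *Shh* passed the threshold with slide as a random block (-1.08), with a gene's probes averaged (-1.08) and by the unadjusted p (-1.08), and its log2 fold change ran from -1.33 to -0.95 without an array, passing without wild-type pool 4 (adjusted p = 0.0427).

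Of 140 tested list genes, 9 were called as reported. The number was 2 with percentile scaling, 0 with local background, 0 with the authors' values, 0 with those set to 1 median, 2 without a filter, 1 with the replicate block, 14 with probes averaged, 44 by the unadjusted p, and 1 to 9 without an array, fewer for every array but mutant pool 1. Over all probes, 121 were called, against 54 with percentile scaling, 0 with local background and with both forms of the authors' values, 33 without a filter, 11 with the replicate block, 202 genes with probes averaged, 1835 by the unadjusted p, and 12 to 139 without an array. The share of calls that were lower was 54.5%, against 66.7% with percentile scaling, 69.7% without a filter, 90.9% with the replicate block, and 42.4% (without mutant pool 1) to 100% (without mutant pool 3) when an array was left out. Without a filter 34747 probes were tested in place of 23124, and the other causes were not tested. Probes with signals near the negative controls, such as *Dlx3*, *Dlx4* and *Dlx6*, allow no statement on change.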
